A study of Saccharomyces cerevisiae with 26 samples.

Results

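Yeast carrying the W81A change in TAF14 (CEN.PK TAF14[W81A]) were compared with their unmodified CEN.PK parent in early OX, the first of 5 time points taken through the metabolic cycle. The comparison uses 4 of the 26 samples of the series: mutant replicates A and B and wild-type replicates A and B of time point 1, each an RNA library. Its members are all 6008 genes of the deposited RNA table, and the quantity compared is mutant minus wild type in early OX. Both genotypes grew in continuous culture, which makes a population cycle in step, and by the labels early OX is followed by late OX (time point 2), early RB (3), late RB (4) and RC (5). Whether A and B are separate cultures, and whether each genotype is a single clone, was not stated. P-values thus measure only the spread between libraries, estimated in a single fit over all 20 RNA libraries and not from these 4 alone.

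Taf14 belongs to several transcription and chromatin complexes, among them the general factors TFIID and TFIIF, the remodellers SWI/SNF and INO80, and the acetyltransferase NuA3. Its YEATS domain is an aromatic pocket that reads acylated lysines on histone tails, crotonyl-lysine above all, and the tryptophan replaced by alanine lies in that pocket. In the yeast metabolic cycle, OX is the burst of respiration in which genes for ribosomes and amino acids are expressed. RB (reductive, building) is tied to cell division and mitochondrial growth, and RC (reductive, charging) to storage carbohydrate, stress and fatty acid breakdown. The labels give the phases but no oxygen trace.

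The files give 1 log2 level per genotype and time point, and whole reads of the 2 libraries behind each level were recovered from its decimals. Values below are scaled reads, meaning reads put on the authors' own scaling between libraries and not divided by gene length, so they compare libraries and not genes. Over the 5440 genes whose reads were unique in all 10 groups, the mutant libraries of early OX held 2257980 and 3200578 reads and the wild-type libraries 2796926 and 2813644. Libraries 1 and 2 carry no letter and were numbered in each group by their scaling factor, the larger first. Library 1 of one genotype is thus not paired with library 1 of the other. The median SD between the 2 libraries was 0.0922 (log2) in the mutant and 0.122 in wild type in early OX, against 0.0542 to 0.0726 in the other 8 groups, and each group was weighted by its own spread.

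At an adjusted p under 0.05, 819 of 5969 genes tested were higher in the mutant (13.7%) and 947 were lower (15.9%), together 1766 (29.6%). Most changes were small: the median size among the called genes was 0.56 on the log2 scale, and 192 of them changed by at least 2-fold, 71 up and 121 down. Over all genes tested the median difference was 0.02 and the range was -2.71 to 2.22. The libraries of the genotypes did not overlap for 1643 of the called genes, which is read against 65.3% of all genes with unique reads in both groups. Without wild-type library 1 the counts were 391 higher and 573 lower, and without wild-type library 2 they were 656 and 584. Counts of list members given below are to be read beside the shares of all genes. Those with a library left out are to be read beside the smaller totals just given. In bulk RNA, fewer cells in a state and less RNA per cell cannot be told apart. The authors' deposited table called 282 genes higher (4.97%) and 524 lower (9.23%) of 5678 with an adjusted p in early OX. Of the authors' 799 calls among the genes tested here, 767 were called in the same direction.

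The mutated gene itself was not called. TAF14 had 1044 and 983 scaled reads in the mutant, against 908 and 868 in wild type (0.19 ± 0.10 SE, adjusted p = 0.15). Gene totals do not show the substituted codon, so they do not check the labels.

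The 15 genes named as highest in the mutant were FLO11, LDS1, GIP2, WSC4, SRL1, YIG1, SIP4, SFG1, TMA10, DPC7, SPS1, SNA2, RPI1, CLB1 and SRY1. FLO11 (YIR019C, chromosome IX, 389572 to 393675 on R64, which is sacCer3) encodes the cell-surface flocculin of filaments and biofilms. It had 170.5 and 132.5 scaled reads in the mutant, against 34.9 and 37.3 in wild type, a 4.08-fold difference (log2 2.03 ± 0.20 SE, n = 2 libraries each, adjusted p = 3.1e-06). From the 4 libraries of early OX alone its adjusted p was 0.0029 by limma. The 2 mutant values lay well above both wild-type values, and the naming rule required that they not overlap. SFG1 (YOR315W, chromosome XV, 904760 to 905800), a putative transcription factor of superficial filamentous growth, had 1277 and 1070 in the mutant and 466 and 395 in wild type (1.44 ± 0.14, adjusted p = 1.4e-06). Of the 21 genes tested of the filamentation list, which holds FLO11 but not SFG1, 5 rose (23.8%) and 3 fell (14.3%). Over all genes tested 13.7% rose and 15.9% fell. NRG1, a repressor, rose, with 2948 and 2776 in the mutant against 1485 and 1363 in wild type (1.01 ± 0.10). One of those that fell was HMS2 (YJR147W), a regulator of pseudohyphal growth, with 55.4 and 55.5 in the mutant against 234.9 and 179.6 in wild type (-1.87 ± 0.21, adjusted p = 7.8e-06). RefSeq places YJR146W over part of HMS2. The 3 that fell became 1 without wild-type library 1, without mutant library 2, or with the trend over coding length (given further on) removed.

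The cell wall list as a whole held 5 higher and 5 lower of 39 genes, below the shares of all genes. Set against the mean difference at time points 2 to 5 (given further on), 13 were lower and none higher, beside 10.8% and 6.17% of all genes. The list's median was 0.04 in early OX and 0.11, 0.34, 0.19 and 0.32 at time points 2 to 5. Among those that fell in early OX was PIR1, a cell-wall glycoprotein gene, with 583.9 and 582.6 scaled reads in the mutant and 1470 and 1421 in wild type (-1.31 ± 0.16). Without wild-type library 1, 3 of 30 were lower, without wild-type library 2, 2 of 30 were higher, without mutant library 1, 3 of 34 were higher. The 13 became 3 without wild-type library 1 and 6 without mutant library 2. The largest rise within the list was 0.77, that of SCW10. SRL1, WSC4, RPI1, LDS1 and SPS1, given next, are not in the list. They were picked because they were among the genes named as highest, so they do not describe the list. SRL1 (YOR247W), which encodes a cell-wall mannoprotein, had 664.9 and 815.5 scaled reads in the mutant and 278.3 and 187.5 in wild type (1.68 ± 0.18, adjusted p = 5.2e-06). WSC4 (YHL028W), a relative of the cell-wall stress sensors, had 171.9 and 116.9 in the mutant and 44.6 and 39.5 in wild type (1.73 ± 0.23). For RPI1, a regulator linked to Ras signalling and the cell wall, the values were 962 and 994 in the mutant and 424 and 393 in wild type (1.26 ± 0.14). In SRL1, WSC4 and RPI1 the lowest mutant library exceeded the highest wild-type library, as the naming rule required. LDS1 (YAL018C), a lipid-droplet protein of spore wall formation, had 105.1 and 90.6 in the mutant and 26.5 and 24.9 in wild type, and SPS1 (YDR523C), a kinase of spore wall formation, 164.8 and 125.7 in the mutant and 55.4 and 53.1 in wild type.

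**Figure D1:**
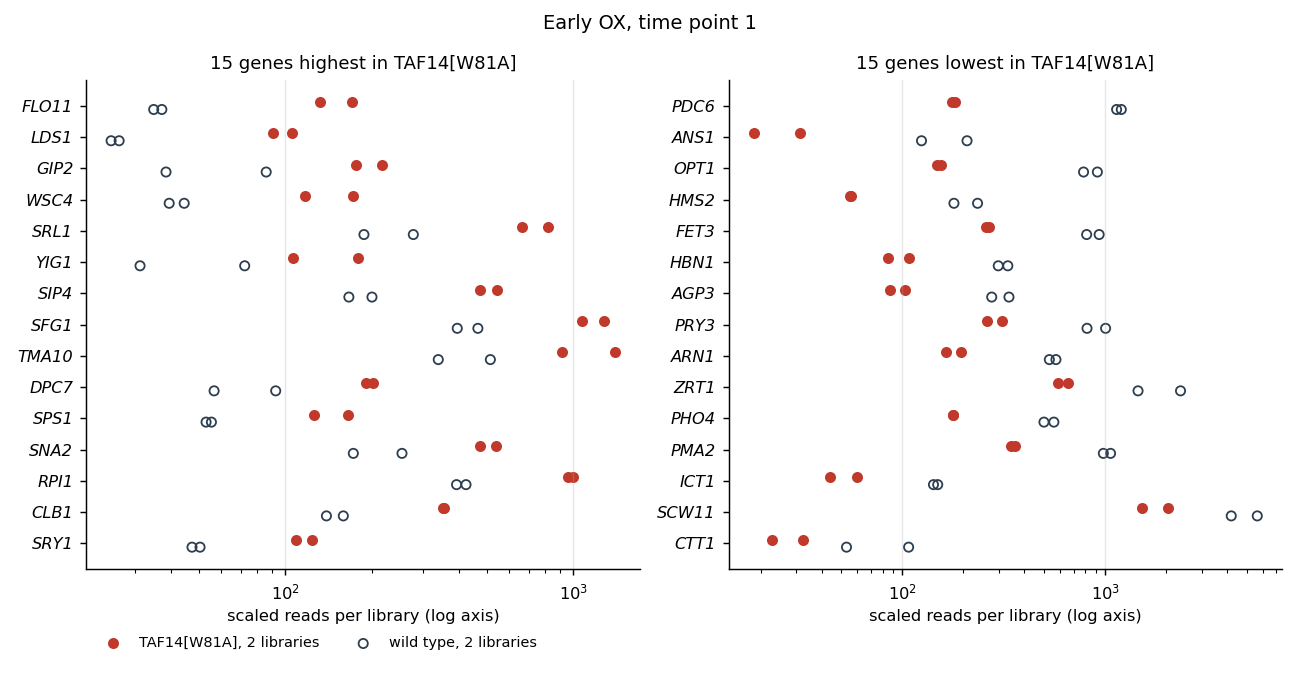
Scaled reads of each library (log axis) for the 15 genes named as highest (left) and the 15 named as lowest (right) in TAF14[W81A] in early OX. Filled points are the 2 mutant libraries and open points the 2 wild-type libraries; in every gene shown the genotypes do not overlap, which the naming rule required, and the wild-type libraries of GIP2, YIG1 and CTT1 lie farther apart than those of FLO11 or PDC6.

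GIP2, TMA10, SIP4 and YIG1 all had their lowest mean of the 5 time points in early OX, in both genotypes. GIP2 (YER054C, chromosome V, 262052 to 263698), a regulatory subunit that takes the Glc7 phosphatase to glycogen synthase, had 176.2 and 217.3 scaled reads in the mutant and 38.5 and 85.9 in wild type (1.75 ± 0.24, adjusted p = 8e-05). Its mean level at time point 4 was 12.75 in the mutant and 12.97 in wild type on the log2 scale, far above the 7.62 and 5.87 of early OX. TMA10, a ribosome-associated protein of stressed cells, had 912 and 1391 in the mutant and 339.7 and 515.1 in wild type (1.43 ± 0.23). SIP4 (YJL089W), an activator of gluconeogenic genes, had 473.1 and 544.6 in the mutant and 166.2 and 199.9 in wild type (1.47 ± 0.19). YIG1, linked to glycerol formation, had 106.6 and 179.3 in the mutant and 31.3 and 72.3 in wild type (1.52 ± 0.28). Values of GIP2 and YIG1 differed more than 2-fold between the 2 wild-type libraries, and the YIG1 difference was 0.93 without wild-type library 1 and 2.11 without wild-type library 2. All 15 of the highest genes stayed called when any of the 4 libraries was left out.

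At the other end stood PDC6, ANS1, OPT1, HMS2, FET3, HBN1, AGP3, PRY3, ARN1, ZRT1, PHO4, PMA2, ICT1, SCW11 and CTT1. PDC6 (YGR087C, chromosome VII, 651290 to 652981), the minor pyruvate decarboxylase, had 174.8 and 181.2 scaled reads in the mutant, against 1202 and 1140 in wild type. The mutant thus held a fraction of 0.153 of the wild-type level (-2.71 ± 0.15, adjusted p = 2.3e-09), with libraries of a genotype close together. By limma on the libraries of early OX alone its adjusted p was 7.6e-05. OPT1 (YJL212C, chromosome X, 33850 to 36249), a transporter of glutathione and oligopeptides, had 154.9 and 148.1 in the mutant and 783 and 916 in wild type (-2.48 ± 0.19, adjusted p = 2.7e-07). PMA2, a minor plasma-membrane proton pump, had 360.9 and 344.9 in the mutant and 981 and 1064 in wild type (-1.53 ± 0.20). ANS1 had 18.5 and 31.2 in the mutant and 208.4 and 124.3 in wild type (-2.69 ± 0.84, adjusted p = 0.021), the widest error of the 15. Its adjusted p passed 0.05 without either wild-type library or without mutant library 1. CTT1, the cytosolic catalase, had 22.7 and 32.2 in the mutant and 53.0 and 107.3 in wild type (-1.45 ± 0.34), and lost its call without wild-type library 2.

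FET3 (YMR058W, chromosome XIII, 388822 to 390732), the ferroxidase of high-affinity iron uptake, had 257.2 and 266.0 scaled reads in the mutant and 934.7 and 811.1 in wild type (-1.73 ± 0.16, adjusted p = 1.4e-06). ARN1, which takes up iron bound to siderophores, had 164.8 and 193.9 in the mutant and 572.2 and 530.9 in wild type (-1.62 ± 0.19). Heme oxygenase HMX1, which frees iron from heme, had 59.7 and 49.7 in the mutant and 137.3 and 153.6 in wild type (-1.40 ± 0.15). Of 29 genes of the iron regulon 8 fell and 2 rose, with a median of -0.13. The fall was thus a matter of some members: FTR1, the permease partner of FET3, fell by 0.75, while SIT1, another siderophore transporter, rose by 0.58 and the reductase gene FRE1 stood at 0.13 ± 0.17. The 2 that rose became 1 without wild-type library 1 or mutant library 2, where SIT1 stood at 0.44 in each case and was not called.

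Of 13 zinc and copper uptake genes 4 fell (30.8%) and 2 rose (15.4%, near the share of all genes), with a median of -0.06. Over all genes tested 15.9% fell and 13.7% rose. ZRT1 (YGL255W, chromosome VII, 20978 to 22108), the high-affinity zinc transporter, had 653.6 and 584.6 scaled reads in the mutant and 2356 and 1454 in wild type (-1.58 ± 0.24, adjusted p = 0.00011). PHO4 (YFR034C), the activator of phosphate-starvation genes, had 177.6 and 178.3 in the mutant and 558.9 and 499.3 in wild type (-1.56 ± 0.22). The copper transporter gene CTR3 went the other way, at 14.2 and 13.6 in the mutant and 6.02 and 1.13 in wild type (1.95 ± 0.40). The zinc and copper list held 2 lower genes without wild-type library 1, none higher without wild-type library 2 and 1 higher without mutant library 1. In the phosphate list 9 of 26 genes fell and none rose, among them the high-affinity transporter gene PHO84 (-0.94 ± 0.22) and VTC5 of the polyphosphate polymerase (-0.80 ± 0.11), while the acid phosphatase gene PHO5 stood at 0.30 ± 0.39. The phosphate list held 7 or 8 lower genes, and the iron list 6 or 7, whichever library was left out. AGP3, an amino acid permease, had 86.7 and 103.3 in the mutant and 275.8 and 335.5 in wild type (-1.67 ± 0.18), but of 23 genes of peptide and amino acid uptake only 3 fell and 4 rose, near the shares of all genes, and without wild-type library 1 the count of those that rose was 1.

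Daughter cell separation covers the enzymes and cell-wall proteins made by the daughter at the end of division. Of the 12 genes of that list 11 fell, AMN1 did not pass the test (-0.27 ± 0.14), and the median was -1.07. The glucanase gene SCW11 (YGL028C, chromosome VII, 441281 to 442909) had 2054 and 1529 scaled reads in the mutant, against 5634 and 4192 in wild type (-1.45 ± 0.17, adjusted p = 7.8e-06). PRY3 (YJL078C) had 262.8 and 309.8 in the mutant and 1006 and 814.5 in wild type (-1.66 ± 0.14). For SUN4, a glucanase of septation, the values were 1520 and 1284 in the mutant and 4051 and 2987 in wild type (-1.32 ± 0.17), and for the cell-wall endoglucanase gene EGT2 2628 and 2192 in the mutant and 5714 and 4908 in wild type (-1.14 ± 0.15). None of these overlapped between genotypes, which the naming rule required of SCW11 and PRY3. The same held for 65.3% of all genes with unique reads in both groups. DSE2 averaged 2359 in the mutant and 7213 in wild type (-1.62 ± 0.13), and CTS1, the chitinase that frees the daughter, averaged 8725 in the mutant and 16240 in wild type (-0.90 ± 0.15). DSE1, DSE2 and CTS1 had several possible pairs of wild-type reads and entered as that group's mean. The list held 7 lower of 9 tested without wild-type library 1; without wild-type library 2 it held 8 of 9, and with the length trend removed 10 of 12.

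Other cell-cycle genes did not move as a block, and their counts are read beside the 13.7% higher and 15.9% lower of all genes tested. In the list of G2 and mitosis 5 of 22 genes rose and 5 fell, and 3 fell without wild-type library 1. CLB1 (YGR108W), a mitotic B-type cyclin, had 353.8 and 356.6 scaled reads in the mutant and 159.0 and 138.9 in wild type (1.25 ± 0.13), and its paralogue CLB2 rose by 0.69 ± 0.22 (0.49 without wild-type library 2 and 0.60 without mutant library 1, neither called). MCM1, the activator of G2/M and early G1 genes, had 255.7 and 259.2 in the mutant and 497.5 and 449.6 in wild type (-0.87 ± 0.15). SIC1, the inhibitor of B-type cyclin kinase that is made on leaving mitosis, had 142.1 and 183.2 in the mutant and 434.8 and 411.2 in wild type (-1.38 ± 0.13), and the G1 cyclin gene PCL9 fell by 1.07. CLN1, another G1 cyclin gene, rose by 0.64 ± 0.14. Of 53 DNA replication genes 3 rose and 7 fell, both below the shares of all genes, with a median of 0.01. MCM3, a helicase subunit, fell by 1.07 and RFA3, the smallest subunit of replication protein A, rose by 0.97. The 3 became 1 whichever of the 4 libraries was left out, and the 7 became 4 without wild-type library 1.

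Of 14 glycolytic genes tested 7 fell and 1 rose, with a median of -0.47, and apart from PFK2 the genes that fell act after the triose phosphates. ENO1 (YGR254W, chromosome VII, 1000927 to 1002240), an enolase gene, had 871 and 1066 scaled reads in the mutant and 2349 and 2465 in wild type (-1.32 ± 0.14, adjusted p = 1.3e-05). CDC19 (YAL038W, chromosome I, 71786 to 73288), the main pyruvate kinase gene, had 1834 and 1756 in the mutant and 4440 and 3643 in wild type (-1.16 ± 0.11). GPM1, the phosphoglycerate mutase, had 1530 and 1695 in the mutant and 2369 and 2603 in wild type (-0.62 ± 0.12). Every one of these fell clear of the wild-type range, where 65.3% of all genes with unique reads did not overlap in either direction. Among earlier steps PFK1 stood at 0.05 ± 0.11, PGI1 at 0.21 ± 0.13 and HXK2 at -0.18 ± 0.12, although PFK2 fell by 0.49. The hexokinase gene HXK1 was the member that rose, with 683.4 and 756.1 in the mutant and 337.3 and 520.8 in wild type (0.78 ± 0.17; 0.46 and not called without wild-type library 1). ENO1 and ENO2, and the TDH genes, are near-identical copies whose reads the authors' counting could have shared between them. The count was 3 lower and none higher of 9 tested without wild-type library 1, and without wild-type library 2 it held 4 of 9, because 5 members could not be split into libraries.

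Fermentation genes followed only in part, and hexose transporter genes split in direction. Beside PDC6, the main pyruvate decarboxylase gene PDC1 fell by 0.72 ± 0.12 (8506 and 7961 in the mutant libraries, against a mean of 13524 in wild type), and the mitochondrial alcohol dehydrogenase gene ADH3 by 0.32 ± 0.11, a call that ended whichever library was left out (adjusted p 0.054 to 0.21 in limma, -0.37 to -0.26). These were the 3 of 8 genes that fell, and none rose; without either wild-type library 1 of 6 was lower. Of 15 hexose transporter genes 3 rose and 3 fell, and the median was 0.52. HXT4 had 950.5 and 995.7 in the mutant and 2112 and 2334 in wild type (-1.19 ± 0.24), whereas HXT13, a low-abundance member, had 12.8 and 11.7 in the mutant and 4.82 and 3.39 in wild type (1.39 ± 0.35; 1.18 and not called without wild-type library 2). Only 1 of 14 hexose transporter genes was higher without wild-type library 1 or mutant library 2, and without wild-type library 2 1 of 14 was lower.

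**Figure D2:**
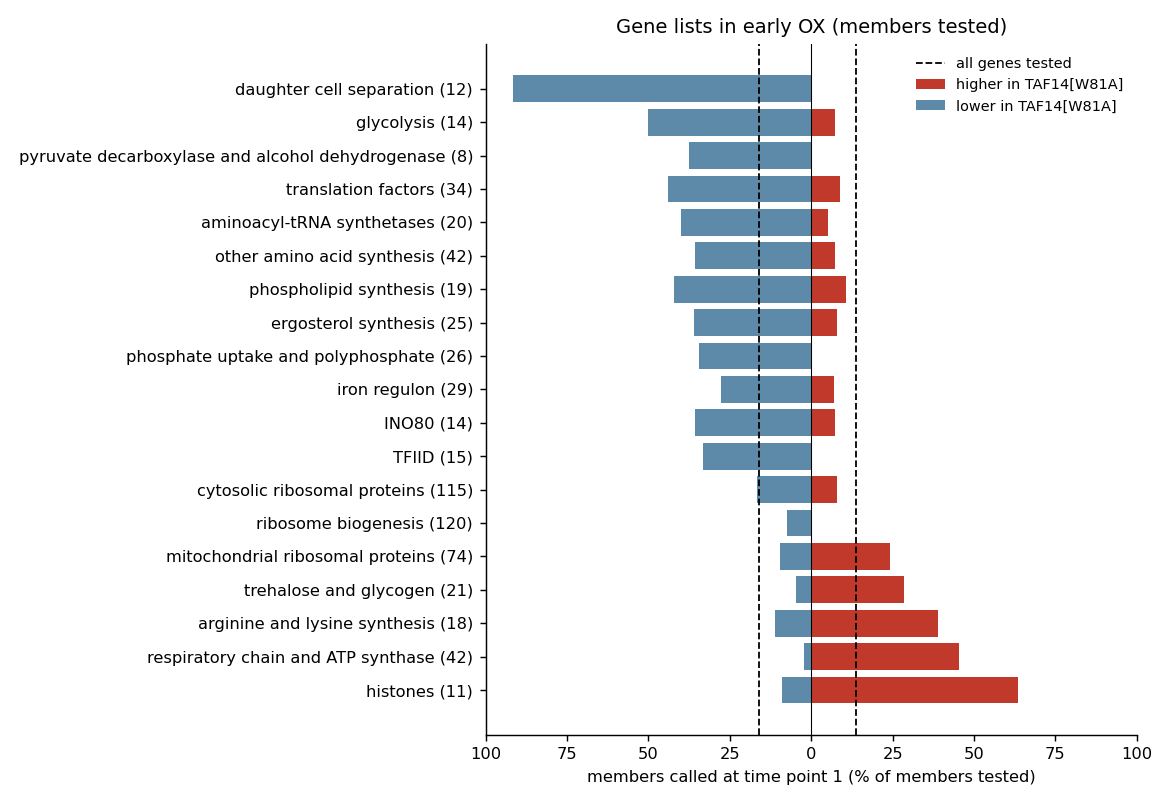
Percent of the tested members of 19 gene lists called higher (right) or lower (left) in TAF14[W81A] in early OX, with the number tested in brackets. Dashed lines mark the shares over all genes tested, 13.7% higher and 15.9% lower; daughter cell separation reaches farthest to the left and the histones farthest to the right, and the lists were picked for display after their values were seen.

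Genes of protein synthesis split by role. Of 34 translation factor genes 15 fell and 3 rose, with a median of -0.32. HCR1, a component of initiation factor eIF3, had 299.8 and 301.1 scaled reads in the mutant and 727.6 and 694.7 in wild type (-1.24 ± 0.14, adjusted p = 6e-06). TEF4, a subunit of the elongation factor eEF1B, had 1786 and 1656 in the mutant and 3426 and 2573 in wild type (-0.79 ± 0.11), and RefSeq places the small nucleolar RNA gene SNR38 inside it. The poly(A)-binding protein gene PAB1 averaged 3643 in the mutant and 6956 in wild type (-0.93 ± 0.09). Of 20 aminoacyl-tRNA synthetase genes 8 fell and 1 rose, with FRS2 at -0.93 ± 0.13, DPS1 at -0.89 ± 0.10 and DED81 at -0.87 ± 0.10. Leaving out wild-type library 1 gave 6 of 23 translation factor genes and 4 of 19 synthetase genes lower, and 4 of 20 synthetase genes were lower without mutant library 2 or with the length trend removed. The 3 translation factor genes that rose became 1 without wild-type library 1 or mutant library 1, and none without wild-type library 2, where the synthetase gene that rose was not called either, nor without mutant library 1.

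Of 115 cytosolic ribosomal protein genes tested 19 fell (16.5%, near the share of all genes) and 9 rose (7.83%, below it), and the median was 0.11. The stalk protein gene RPP0 averaged 1940 in the mutant and 3787 in wild type (-0.96 ± 0.11), and RPS7B fell by 1.17 ± 0.14. RPL41B, with 1232 and 1077 in the mutant and 672.1 and 608.9 in wild type, rose by 0.85 ± 0.25. It stood at 0.78 without wild-type library 2, 0.75 without mutant library 1 and 0.44 with the length trend removed, and was not called in any of those fits. Most of these genes had several possible pairs of reads: 7 could be tested without a wild-type library, of which 3 were higher and none lower without wild-type library 1 and none was called without wild-type library 2. Without mutant library 1 the counts were 1 higher and 17 lower of 72, and without mutant library 2 they were 10 and 11; with the length trend removed they were 1 and 21 of 115. Many of them are paralogue pairs whose reads could have been shared. Of 120 ribosome biogenesis genes 9 fell and none rose, below the share of all genes, with a median of -0.12. Among them were UTP5, of the small-subunit processome, with 1809 and 1831 in the mutant and 2989 and 2731 in wild type (-0.65 ± 0.21, not called whichever library was left out, -0.72 to -0.59), and the rRNA methyltransferase gene NOP1 (-0.87 ± 0.17). Those 9 became none of 101 without wild-type library 1, 4 without mutant library 1, 1 without mutant library 2 and 3 with the length trend removed.

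The difference between genotypes ran with coding length. Genes were split into 5 bins of nearly equal size by coding length. In the shortest bin, 75 to 573 bases, the median difference in early OX was 0.25, 22.8% were higher and 3.84% were lower. In the longest bin, from 2094 bases, the median was -0.07, 9.89% were higher and 20.2% lower. Genes called higher had a median coding length of 825 bases and genes called lower one of 1503, against 1182 over all genes tested. The same slope stood at the other time points, where the median of the shortest bin was 0.29, 0.22, 0.13 and 0.16 at time points 2 to 5. Within a genotype the libraries also differed a little by length in early OX: library 2 minus library 1 had a median of -0.03 in the shortest bin and 0.03 in the longest in the mutant, and of -0.05 and 0.04 in wild type. Its cause was not tested. With each library's trend over length removed before the fit, an alternative chosen after seeing the data, 788 genes were higher and 736 lower, and 594 of the 819 and 678 of the 947 calls were shared with the fit above. All 30 genes named as highest or lowest stayed called.

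**Figure D3:**
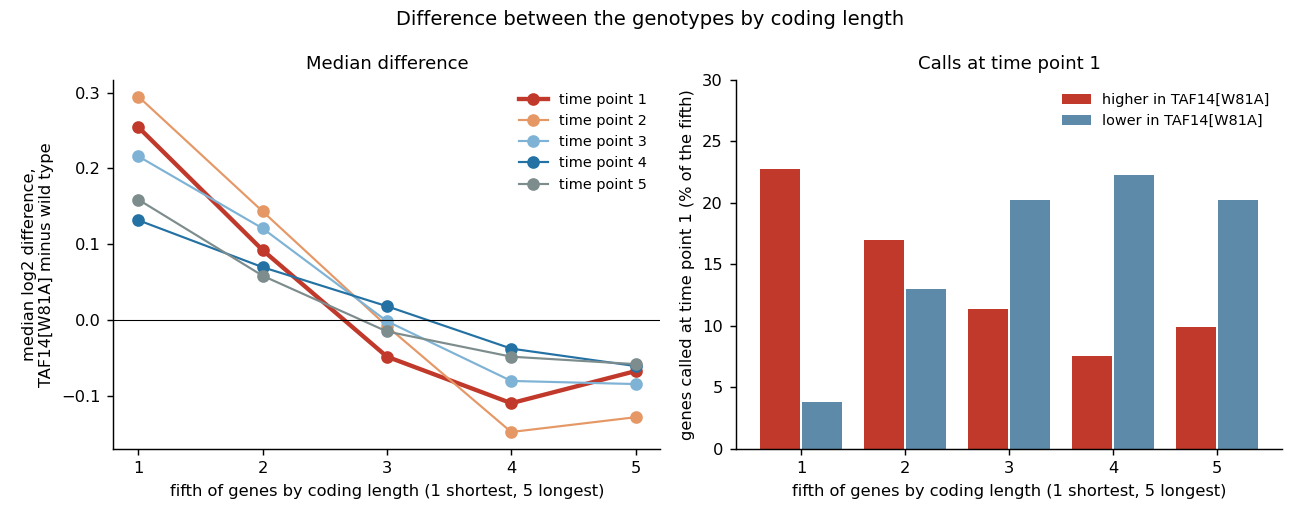
Left, the median log2 difference (TAF14[W81A] minus wild type) in each of 5 bins of the 5969 genes tested, ordered by coding length, with 1 line per time point; right, the percent of each bin called higher or lower in early OX. The shortest bin has a median of 0.25 and the longest one of -0.07 in early OX, and the lines of time points 2 to 5 slope the same way.

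Lists of short genes have to be read beside that slope. Of 42 respiratory chain and ATP synthase genes, with a median coding length of 451.5 bases, 19 rose and 1 fell, and the median was 0.32. The ATP synthase subunit gene ATP15 had 2738 and 2629 scaled reads in the mutant and 1355 and 1783 in wild type (0.79 ± 0.12, adjusted p = 0.00026). SDH4, which anchors succinate dehydrogenase in the inner membrane, had 1611 and 1714 in the mutant and 908 and 1184 in wild type (0.68 ± 0.11). CYC1, the cytochrome c gene, went against them, with 274.2 and 310.8 in the mutant and 509.5 and 451.9 in wild type (-0.71 ± 0.12). With the length trend removed 6 rose and 2 fell, and the median was 0.12. Leaving out wild-type library 1 gave 7 higher and 3 lower of 34. Of 74 mitochondrial ribosomal protein genes (median 715.5 bases) 18 rose and 7 fell, and with the length trend removed 10 and 8; without wild-type library 2 there were 8 higher, without mutant library 1 there were 10 and without wild-type library 1 there were 12.

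Histone genes are short as well, with a median of 399 bases, and 7 of 11 rose while 1 fell, with a median of 0.39. HTA2 (YBL003C, chromosome II, 235394 to 235792), which encodes H2A, had 1699 and 1572 scaled reads in the mutant and 989 and 826 in wild type (0.85 ± 0.13, adjusted p = 0.00011). HTB2, its divergent neighbour for H2B, had 2920 and 2700 in the mutant and 1832 and 1483 in wild type (0.77 ± 0.11). HTZ1, which encodes the H2A.Z variant, had 575.4 and 539.8 in the mutant and 396.3 and 372.8 in wild type (0.53 ± 0.11). Linker histone HHO1 fell, with 152.0 and 206.6 in the mutant and 239.7 and 255.3 in wild type (-0.48 ± 0.15), and HTB1 stood at 0.00 ± 0.09. With the length trend removed 3 rose and 1 fell and the median was 0.14. Leaving out wild-type library 2 or mutant library 1 gave 4 higher, and HHO1 was not called without either wild-type library or without mutant library 1. The H3 and H4 genes are near-identical pairs whose reads could have been shared.

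Genes of storage carbohydrate, stress and fatty acid use differed between the libraries of a genotype, and their values rest on that. The median of library 2 minus library 1 was 0.34 in the mutant and 0.70 in wild type for 21 trehalose and glycogen genes, 0.47 and 0.82 for 21 beta-oxidation genes, and 0.32 and 0.80 for 16 genes of gluconeogenesis and the glyoxylate cycle, while that for cytosolic ribosomal protein genes was -0.21 and -0.36. Of the trehalose and glycogen genes 6 rose (28.6%) and 1 fell (4.76%), with a median of 0.23. Over all genes tested 13.7% rose and 15.9% fell, both above the shares for beta-oxidation (0% and 9.52%). GAC1, which targets a phosphatase to glycogen synthase, had 181.9 and 226.0 scaled reads in the mutant and 72.3 and 115.2 in wild type (1.14 ± 0.18), and GLG2, a glycogenin, 288.4 and 325.4 in the mutant and 142.1 and 162.7 in wild type (1.01 ± 0.13). Leaving out wild-type library 1 gave 3 higher and 3 lower with a median of -0.18, leaving out wild-type library 2 gave 14 higher, and leaving out mutant library 2 gave 3 higher and 3 lower. In beta-oxidation 2 of 21 genes fell and none rose, and the thioesterase gene TES1 had 157.7 and 205.6 in the mutant and 356.6 and 540.0 in wild type (-1.28 ± 0.19); 11 were lower without wild-type library 1, 5 without mutant library 2, and 5 were higher and 1 lower without wild-type library 2. Of 29 heat shock genes 5 fell (17.2%, near the 15.9% of all genes tested) and 1 rose. The co-chaperone gene STI1 fell by 0.62 ± 0.14 and HSF1, which encodes the heat shock factor, by 0.53 ± 0.12. Neither was called without wild-type library 2 (-0.43 and -0.37). Among 31 genes of oxidative and general stress 9 fell and 6 rose, with GRE1 at -1.27 ± 0.32 (-1.02 and not called without wild-type library 2) and DDR48 at 0.97 ± 0.19. Leaving out wild-type library 1 gave no heat shock gene higher and 3 lower, and 3 stress genes higher; leaving out wild-type library 2 gave 5 higher and none lower and, of the stress genes, 5 lower; leaving out mutant library 1 gave 3 and 3 heat shock genes.

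Lists of lipid and amino acid synthesis differed in direction. Of 14 fatty acid synthesis genes 5 rose and 2 fell, with a median of 0.21. TSC13, a reductase of very long chain fatty acid elongation, had 2924 and 2874 scaled reads in the mutant and 2049 and 2119 in wild type (0.48 ± 0.09). The fatty acid synthase subunit gene FAS1 rose by 0.55 ± 0.17, whereas FAS2, for the other subunit, fell by 0.43 ± 0.11. FAS1 was not called without wild-type library 1 (0.55) or 2 (0.56), and could not be tested without a mutant library. It was not called either from the libraries of early OX alone (adjusted p = 0.21 by limma) or with the length trend removed (0.46). Without mutant library 1, 2 fatty acid synthesis genes were higher and none lower, without wild-type library 1, 3 and none, without mutant library 2, 3 and 1, and without wild-type library 2, 4 and 1, each of 13; with the length trend removed 3 were higher. Of 25 ergosterol genes 9 fell and 2 rose, among them ERG12, mevalonate kinase, with 333.9 and 290.3 scaled reads in the mutant and 545.7 and 518.5 in wild type (-0.77 ± 0.11). The 2 became none without wild-type library 2 or mutant library 1, and 1 without either of the others. Of 19 phospholipid genes 8 fell and 2 rose. OPI3, a methyltransferase of phosphatidylcholine synthesis, averaged 922.5 in the mutant and 2389.6 in wild type (-1.37 ± 0.13), and OPI1, the repressor of inositol-responsive genes, had 700.4 and 697.6 in the mutant and 1237 and 1180 in wild type (-0.79 ± 0.11). Leaving out either wild-type library gave 5 of 18 phospholipid genes lower, and removing the length trend also gave 5. Of 42 genes in the mixed list of amino acid synthesis 15 fell and 3 rose; homoserine kinase THR1 had 515.7 and 486.2 in the mutant and 1215 and 973 in wild type (-1.12 ± 0.15). The 3 became 1 without either wild-type library or mutant library 1, and the 15 became 4 of 35 without wild-type library 1, 8 of 38 without mutant library 2 and 8 with the length trend removed. Arginine and lysine synthesis went the other way in number, with 7 of 18 higher and 2 lower: ARG4, argininosuccinate lyase, had 6450 and 6174 in the mutant and 3914 and 4242 in wild type (0.63 ± 0.11), but LYS4, homoaconitase, had 2137 and 2099 in the mutant and 4622 and 3972 in wild type (-1.02 ± 0.15). Without wild-type library 1 or 2 it held 4 higher of 12 (and 1 lower without library 1), and without mutant library 1 4 of 16.

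Partners of Taf14 in its complexes changed in both directions, and their counts are read beside the 13.7% higher and 15.9% lower of all genes tested. In TFIID 5 of 15 genes fell and none rose, the largest being TAF8 with 247.2 and 249.4 scaled reads in the mutant and 444.5 and 380.7 in wild type (-0.73 ± 0.14). In TFIIF, TFG1 fell by 0.43 ± 0.11 and TFG2 stood at -0.28 ± 0.12 (adjusted p = 0.075). Of 14 INO80 genes 5 fell and 1 rose: ARP8 had 417.7 and 490.1 in the mutant and 608.3 and 719.6 in wild type (-0.55 ± 0.11), and IES5 had 878 and 853 in the mutant and 526.4 and 518.5 in wild type (0.73 ± 0.17). SWI/SNF held 3 higher and 3 lower of 12, with the actin-related subunit gene ARP7 at -1.02 ± 0.18, SWI1 at 0.80 ± 0.12 and SNF11 at 0.75 ± 0.12. None of the 6 NuA3 genes tested was called, nor were YAF9 (0.11 ± 0.20) and SAS5 (0.26 ± 0.15), the other YEATS domain genes. Among 38 histone acetyltransferase and deacetylase genes 5 fell (13.2%, below the 15.9% of all genes tested) and none rose. SPT8 of SAGA had 126.4 and 148.1 in the mutant and 303.6 and 293.7 in wild type (-1.12 ± 0.16). The TFIID and INO80 counts of lower genes were both 2 without either wild-type library, and INO80 held 3 without mutant library 1; with the length trend removed TFIID held 2 and the acetyltransferase list 3, as it did without wild-type library 2. TFG1 was not called without wild-type library 1 or with the trend removed.

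The early OX difference was then set against the mean of the same difference at time points 2 to 5, which come from other libraries. It departed from that mean for 1014 of 5969 genes (17.0%), 368 upward (6.17%) and 646 downward (10.8%), and these included 585 of the 1766 genes called in early OX. Against late OX alone 91 genes were higher and 28 lower. Late OX itself had 27.3% of genes called higher and 27.0% lower, and early RB 27.4% and 20.6%, late RB 28.0% and 24.8% and RC 21.6% and 21.4%. Of the genes called in early OX 1453 were called in the same direction in late OX, 495 in the same direction at all 5 time points and 54 at no other time point. FLO11 belonged to the first kind, at 1.33, 2.16, 1.69 and 1.83 at time points 2 to 5. GIP2 belonged to the other, at -0.01, -0.18, -0.22 and 0.28. Without wild-type library 1 the 1014 became 182, and without mutant library 2 they became 536.

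**Figure D4:**
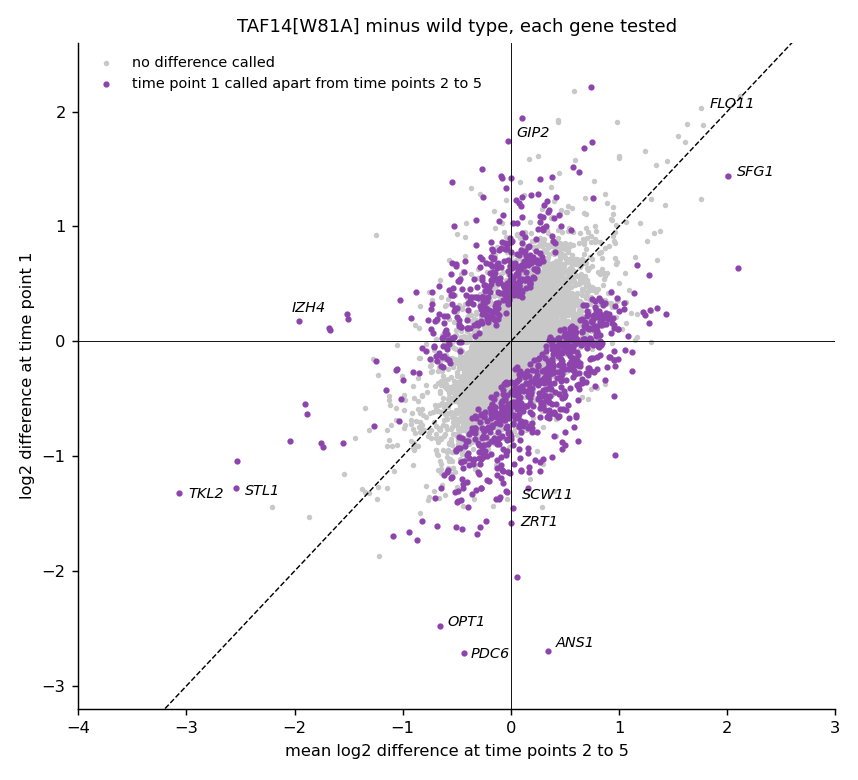
Each of the 5969 genes tested, with its mean log2 difference (TAF14[W81A] minus wild type) at time points 2 to 5 on the horizontal axis and its difference in early OX on the vertical axis; the dashed line marks equality. Purple points are the 1014 genes called apart from that mean; PDC6, ANS1 and OPT1 lie far below the line, GIP2 above it, and FLO11 near it.

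Genes ranked here had a standard name, 50 or more scaled reads on average and no overlap between genotypes. The lowest of them against the other time points were ANS1, PDC6, ANB1, OPT1, ZRT1 and SCW11. PDC6 differed by -1.10, -0.39, -0.52 and 0.25 at time points 2 to 5, so that its early OX difference was lower by 2.27 ± 0.16 (adjusted p = 1.1e-07). ZRT1 stood between -0.21 and 0.19 at time points 2 to 5, and wild-type ZRT1 itself had its highest mean in early OX, at 10.85 on the log2 scale against 6.48 to 6.81 later (9.27 and 6.45 to 6.73 in the mutant). The highest were IZH4, GIP2, TKL2, DPC7, CIN5 and STL1, and of these GIP2 and DPC7 were called higher in early OX itself. TKL2, a minor transketolase gene, and STL1, a glycerol symporter gene, were lower in the mutant in early OX by 1.32 ± 0.27 and 1.27 ± 0.34, and lower still later, TKL2 at -4.83 at time point 4 and STL1 at -3.82 at time point 3. STL1 was not called in early OX without wild-type library 2 (-0.78, adjusted p = 0.15 by limma), without mutant library 2 (-0.79, adjusted p = 0.081) or from the libraries of early OX alone (adjusted p = 0.064). IZH4 did not pass the test in early OX (0.17 ± 0.25) and stood at -2.82 at time point 4.

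Lists differed in the same way, and their counts with a library left out are to be read beside the fall in calls over all genes. All 12 daughter cell separation genes departed downward in early OX, their median being -0.97 in late OX and 0.46, 0.32 and 0.17 at time points 3 to 5. That held for 6 of 9 without wild-type library 1. Of 115 cytosolic ribosomal protein genes 92 were called lower in this contrast. Their median was 0.26, 0.97, 1.02 and 0.35 at time points 2 to 5, and that of ribosome biogenesis genes -0.20, 1.26, 1.24 and 0.10. Of the 120 biogenesis genes 65 departed downward in early OX. Without wild-type library 1 none of 7 ribosomal protein genes and 7 of 101 biogenesis genes did so; without mutant library 2 the counts were 42 of 72 and 25 of 120, and without wild-type library 2 they were 3 of 7 and 47 of 101. Trehalose and glycogen genes departed upward, 12 of 21, with medians of -0.13, -0.66, -0.62 and -0.14 at time points 2 to 5. Of 11 histone genes 9 did so, with medians of 0.16, -0.18, -0.77 and 0.05. For trehalose and glycogen the count was 3 without wild-type library 1, 18 without wild-type library 2 and 6 without mutant library 2; for the histones it was 6 of 9, 4 of 9 and 9 of 11.

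**Figure D5:**
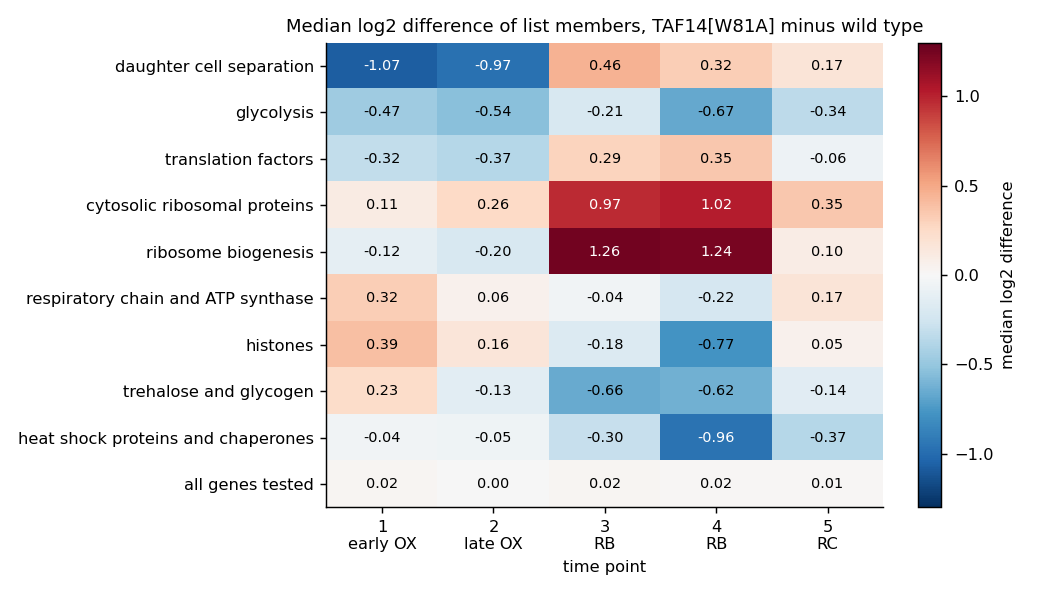
Median log2 difference (TAF14[W81A] minus wild type) of the tested members of 9 gene lists and of all genes tested, at each time point. Daughter cell separation is lowest in early and late OX (-1.07 and -0.97), whereas ribosomal protein genes stand at 0.11 and 0.26 there and at 0.97 and 1.02 at time points 3 and 4.

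Genes called in early OX also differed in their place in the wild-type cycle. Among time points 2 to 5, whose levels are not in the early OX difference although their libraries entered the estimate of its spread, 47.5% of the genes called higher had their highest wild-type mean at time point 4, against 26.4% of the genes called lower and 29.9% of all genes tested. Late OX was the highest of these 4 time points for 21.4% of the genes called higher, 37.6% of those called lower and 34.1% of all. The median difference per chromosome ran from -0.05 on chromosome XIV to 0.07 on chromosome X. Of 567 pairs of adjacent genes both called, 355 (62.6%) changed in the same direction, 70.1% of 157 divergent, 66.4% of 128 convergent and 56.7% of 282 tandem pairs, beside 50.2% of all pairs that the 1766 called genes can form. The library kit keeps strand, but whether counting used it is not given in the sources used here, so reads of overlapping neighbours may not be told apart.

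Account was taken of the genes outside the fit. For 39 genes, among them many ribosomal protein, TEF and TDH3 genes of high abundance, no group gave unique reads or no unique length, and they were not tested. Their deposited mutant minus wild-type differences in early OX ran from -0.21 to 1.06. Of these, 7 had an adjusted p under 0.05 in the authors' deposited table: OLE1 for the fatty acid desaturase at 1.03, ZEO1, MET17, GCN4, MF(ALPHA)1, RNR4 and COF1. DSE2 and SPO24 changed as much as the named genes but could not be checked for overlap, and SPO24 averaged 7923 in the mutant and 3227 in wild type (1.26). Members of lists given with values beyond the 3 largest changes per list, and SPO24, were chosen after their values were seen.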

How the data were processed

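RNA libraries of TAF14[W81A] and wild type at time point 1 were compared, and the 16 RNA libraries of time points 2 to 5 entered the fit for its spread and for the second contrast. The deposited RNA table holds, per the file headers, 1 log2 level per gene, genotype and time point made by the authors, with their log2 fold change and adjusted p-value. BWA, DESeq2, MACS2, deepTools and sacCer3 are listed, with neither version nor role, per the submitters' processing notes. The ChIP table was not used here.

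Once unlogged and multiplied by gene length, a level splits into 2 whole numbers of reads, 1 per library, with a scaling step for each library (tolerance 1.15 times the rounding error). This worked with the RefSeq length for 5438 genes, and another 547 needed a length found by search. With lengths shuffled between genes 0.958% came out whole. A group with several solutions entered as its mean, counted as 2 libraries.

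Limma 3.58.1 with a mean trend (R 4.3.3) was run on log2(scaled reads + 1), with 10 group means over 20 libraries, a weight per group (0.628 for the mutant and 0.335 for wild type at time point 1), 10 residual and 8.80 prior degrees of freedom and no filter on low values. The contrasts were mutant minus wild type at time point 1, and that difference minus its mean over time points 2 to 5. Calls are two-sided at a Benjamini-Hochberg adjusted p under 0.05 over 5969 genes, and errors are SE of the fit. The fit was tested on simulated data. No count model was run.

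Named genes are the 15 highest and 15 lowest called genes with a standard name, 50 or more scaled reads on average and no overlap between genotypes, up to 3 called members of a list with the largest change, members of lists with fewer than 6 tested genes, the 6 highest and 6 lowest of the second contrast, and the YEATS domain genes. The comparison and the 47 lists were chosen with earlier results of these data known, and lists are described by counts and medians beside those of all genes. Alternatives were the pseudocount, a filter, 2 other scalings, equal weights, genes with a single solution, libraries of time point 1 alone, each library left out and, added after seeing the data, non-overlap and a lowess trend over coding length (span 0.3) removed from each library.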

Additional observations from a re-analysis of the deposited data

Results flagged for a closer look

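The difference between TAF14[W81A] and wild type in early OX was not the mean of that difference at time points 2 to 5 for 1014 genes, by a test of the difference between the differences (limma, Benjamini-Hochberg adjusted p under 0.05). Genes named only as members of a list, some of which also passed that test, are left out here. Among the genes named as highest or lowest, in early OX or against time points 2 to 5, 28 passed it. Those above the mean of the other time points, on the log2 scale, were IZH4 at 2.13, GIP2 at 1.78, TKL2 at 1.75, DPC7 at 1.42, CIN5 at 1.39, STL1 at 1.27, SRY1 at 1.18, SNA2 at 1.08, TMA10 at 1.05, SRL1 at 1.01, WSC4 at 0.98, YIG1 at 0.94, RPI1 at 0.84, SIP4 at 0.84 and CLB1 at 0.49. Those below it were ANS1 at -3.04, PDC6 at -2.27, ANB1 at -1.96, OPT1 at -1.82, ZRT1 at -1.58, SCW11 at -1.48, AGP3 at -1.36, ARN1 at -1.11, FET3 at -0.87, PHO4 at -0.75, PRY3 at -0.72, HBN1 at -0.61 and SFG1 at -0.56. SFG1 was thus raised in the mutant throughout, and less in early OX than on average later. Of the 28, 13 stayed past the threshold whichever of the 4 libraries of early OX was left out, and all 28 did with the length trend removed. Those 13 were GIP2, SRL1, RPI1, SRY1, PDC6, OPT1, AGP3, ARN1, ZRT1, SCW11, IZH4, TKL2 and CIN5. Leaving out wild-type library 1 ended 15 of the calls.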

How the results depend on the processing

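No paired analysis was possible because the recovered libraries carry no letter A or B. With equal weights for all groups 1427 genes were higher, 1518 lower and 1912 apart from the mean of time points 2 to 5. The authors' deposited comparison gave 282 higher and 524 lower, and late OX alone as the other side left 119 genes apart. With 1 of the 4 libraries left out, where the lone library of a group was assumed to vary like the others, 391 to 656 genes were higher, 573 to 809 lower and 182 to 867 apart. The lowest of each came without wild-type library 1. Lower genes numbered 584 without wild-type library 2, and 536 were apart without mutant library 2. Upper-quartile scaling made 54.5% of the calls higher, against 46.4%, with 969 higher and 810 lower. Under the pseudocount of 8, the filter, both scalings, single-solution genes, libraries of time point 1 alone and the removed length trend, these counts moved by less than 1.5 times. For named genes, 554 values stayed on their side of the threshold with a library left out and 90 lost their call, and none changed direction. No scaling moved the median of all genes by over 0.1. The recovery gives no depth for genes with several solutions, which include the most abundant.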
